A study of Mus musculus with 4 samples.

Results

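The 10 genes described here encode the enzymes and transporters that neurons use to make, package and recover acetylcholine, serotonin and the catecholamines dopamine and noradrenaline. They are Slc5a7, Slc18a3, Chat, Slc6a4, Tph2, Th, Ddc, Slc18a2, Slc6a3 and Dbh. They were taken by name, each through 1 Affymetrix probe set that carries a single gene symbol, and are 10 of 19938 genes so named. The choice was made with earlier results of these data known, so the shares over all genes are a scale and not a test. Levels were measured in the pontine nucleus, superior colliculus, cerebellum and olfactory bulb of ICR mice at embryonic day 17.5, an outbred stock in which no genetic change or treatment is labelled for any group. Each region was 1 array of RNA pooled from mice, 16 for the superior colliculus, 15 for the pontine nucleus, 14 for the bulb and 13 for the cerebellum. The array called pontine nucleus here has that tissue label, but its title reads Pons. Whether other tissue of the pons was included is not stated, so pontine nucleus below means this array. There were no replicates, so the differences below carry neither SD nor p-value, and regions and single pooled preparations cannot be told apart.

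A cholinergic neuron takes up choline, joins it to an acetyl group and loads the product into vesicles. A monoamine neuron hydroxylates an aromatic amino acid, removes its carboxyl group, loads the amine into vesicles through a carrier that all monoamine neurons share, and recovers it after release through a carrier specific to each amine. The cell bodies of these neurons are few and gathered in small groups. Serotonin neurons lie in the raphe of the brainstem, noradrenaline neurons in the locus coeruleus and neighbouring groups of the hindbrain, and most dopamine neurons in the ventral midbrain, with a separate population among the interneurons of the olfactory bulb. Cholinergic cell bodies include motor neurons and other groups of the brainstem and basal forebrain. The axons of all these cells reach far beyond them, but a level measured in a dissected tissue comes mainly from the cell bodies it contains. In such bulk tissue, fewer cells of a type and less RNA per cell cannot be told apart.

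Values are log2 signals, so that 1 unit is a 2-fold difference. The medians of the 4 arrays lay between 8.07 and 8.13. The rule for a higher call was a level 1 log2 unit or more above each of the other 3 arrays, and for a lower call a level 1 unit or more below each of them. Calls were made for genes whose highest level exceeded 8.56, the median of all gene levels, and are also given without that floor. As a scale for weak signals, 203 genes of vomeronasal receptors and beta defensins had a 95th percentile level of 7.33, and 95% of their differences between 2 arrays were at most 0.40 in size. A gap larger than 0.40 from a level above 7.33 to one below it is a lower bound. Markers of the labelled tissues were also read. Their lists were chosen with earlier results of these data known, so their calls are a description and not a check. They compare the 4 regions only and do not tell the pontine nucleus from other tissue of the pons. All 6 cerebellar, all 8 olfactory bulb and all 6 collicular markers passed as higher in their own region. All 8 pontine markers were highest in the pontine nucleus, and 6 of them passed.

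Of the 10 genes, 6 were highest in the pontine nucleus, 3 in the olfactory bulb, 1 in the cerebellum and 0 in the superior colliculus. The gap to the next region was under 0.40 for Chat, Ddc, Slc18a2 and Slc6a3, whose highest region is therefore not settled. Over all 19938 genes, the shares with their highest level in those regions were 22.6%, 24.3%, 28.7% and 21.1%. With the level floor, 3 of the 10 were called higher in the pontine nucleus, namely Slc5a7, Slc18a3 and Slc6a4, where the rule called 0.798% of 10908 genes. Th was called higher in the olfactory bulb, where the rule called 0.972%. None was called higher in the cerebellum or the superior colliculus, where the rule called 0.605% and 0.715%. Only 4 of the 10 exceeded the floor on any array, and they did so in the region in which they were called, Th also in the pontine nucleus. Without the floor Tph2 joined the pontine group, which made 4 of 10 against 0.507% of 19938 genes, and the bulb kept 1 of 10 against 0.592%. Even without the floor none of the 10 was called lower in any region, where the rule called 0.552% of genes in the pontine nucleus, 0.241% in the bulb, 0.0953% in the cerebellum and 0.0903% in the colliculus. The median range from the lowest to the highest array was 1.11 log2 units over the 10 genes and 0.32 over all genes.

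**Figure D1:**
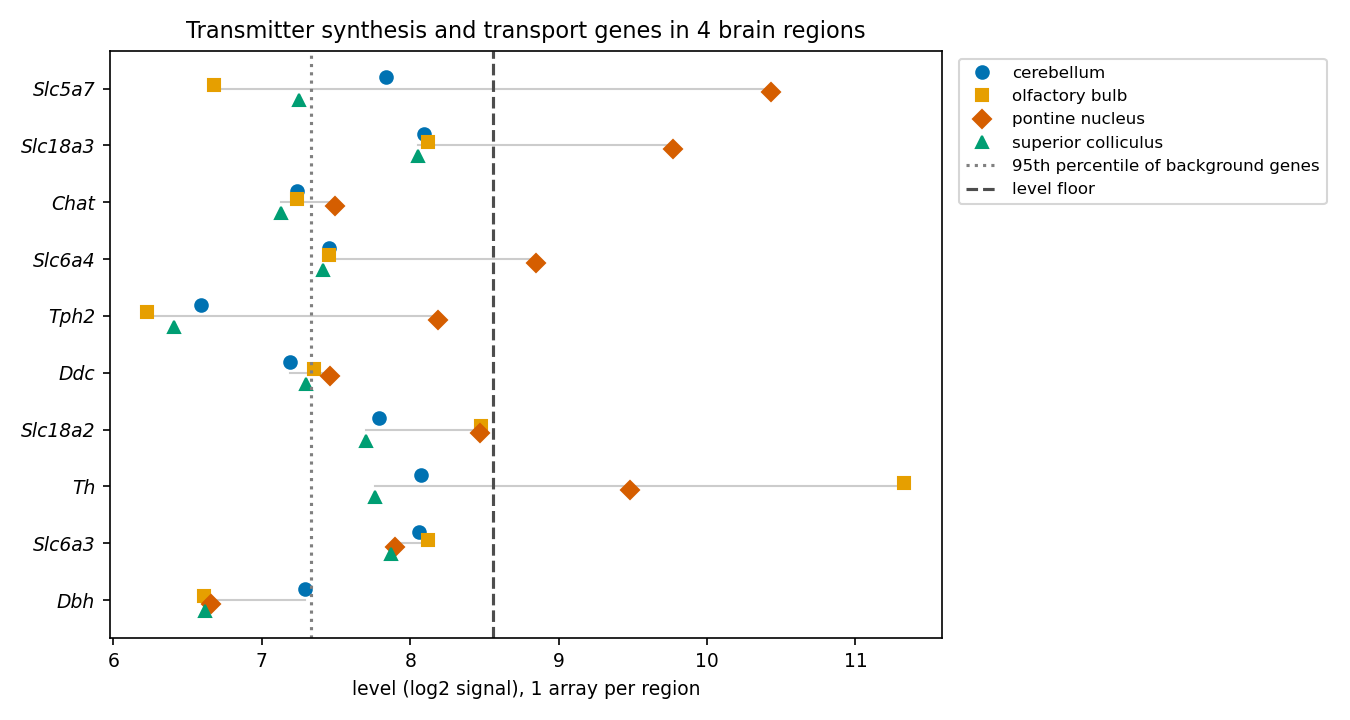
Level of each of the 10 genes (log2 signal, horizontal axis) on the 4 arrays, 1 point per region, with the level floor of 8.56 and the background percentile of 7.33 as vertical lines. Slc5a7, Slc18a3, Slc6a4 and Tph2 have a single pontine point to the right of the other regions, Th has its bulb point at 11.33, and the points of Chat, Ddc and Slc6a3 lie close together. Levels are to be compared within a gene only.

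Of the cholinergic genes, Slc5a7 and Slc18a3 were high in the pontine nucleus, and Chat had a signal near background on all 4 arrays. Slc5a7, the high-affinity choline transporter that supplies choline for acetylcholine synthesis, read 10.43 in the pontine nucleus, 7.84 in the cerebellum, 7.25 in the superior colliculus and 6.68 in the olfactory bulb. The pontine array was the single high one, 2.59 log2 units or 6.02-fold above the cerebellum and 3.75 units above the bulb, the last a lower bound. The other 3 arrays were not level with each other either, since the cerebellum lay 1.16 above the bulb. Slc18a3, the vesicular acetylcholine transporter, read 9.77 in the pontine nucleus but 8.12 in the bulb, 8.09 in the cerebellum and 8.05 in the superior colliculus. Its pontine level was 1.65 units or 3.14-fold above the next array, and the remaining arrays lay within 0.07 of each other. Chat, choline acetyltransferase, the enzyme that makes acetylcholine, read 7.49 in the pontine nucleus, 7.24 in both cerebellum and bulb, and 7.13 in the colliculus. The pontine nucleus came first here as well, but by 0.25 units, which is inside the 0.40 that spans most differences of the background genes. Of its 4 levels, only the pontine one lay above 7.33. At such weak signals the gap settles neither a pontine excess nor whether Chat varied less than Slc18a3.

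Slc18a3 and Chat form the cholinergic gene locus, in which the gene of the vesicular transporter lies inside that of the enzyme. In the RefSeq gene table the span of Slc18a3 is contained in that of Chat, and so is the promoter window of Slc18a3. The 250 bases before the start of each transcript are shown because of that shared locus, together with those of Slc5a7, the other cholinergic gene that was high in the pontine nucleus. The sequences are from RefSeq, build GRCm38.p6, minus strand, at chr17:54299035-54299284 for Slc5a7, chr14:32464851-32465100 for Slc18a3 and chr14:32465910-32466159 for Chat. They run 5′ to 3′ up to the transcript start, and capitals mark matches to 6 short motifs searched on both strands. The motifs were the TATA box (TATAAA), the core of the cyclic AMP response element or CRE (TGACGT), the GC box (GGGCGG), an E-box (CAGCTG), a homeodomain core (TAATTA) and an ETS core (CCGGAA).
Slc5a7: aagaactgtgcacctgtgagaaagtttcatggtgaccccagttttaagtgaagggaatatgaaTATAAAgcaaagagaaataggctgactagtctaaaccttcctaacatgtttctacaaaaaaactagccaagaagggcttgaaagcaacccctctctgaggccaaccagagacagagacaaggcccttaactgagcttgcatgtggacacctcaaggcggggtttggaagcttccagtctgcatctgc
Slc18a3: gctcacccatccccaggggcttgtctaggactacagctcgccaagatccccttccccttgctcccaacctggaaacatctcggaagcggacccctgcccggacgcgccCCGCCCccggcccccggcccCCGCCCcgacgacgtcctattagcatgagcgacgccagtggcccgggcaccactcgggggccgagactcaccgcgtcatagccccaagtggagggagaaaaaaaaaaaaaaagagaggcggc
Chat: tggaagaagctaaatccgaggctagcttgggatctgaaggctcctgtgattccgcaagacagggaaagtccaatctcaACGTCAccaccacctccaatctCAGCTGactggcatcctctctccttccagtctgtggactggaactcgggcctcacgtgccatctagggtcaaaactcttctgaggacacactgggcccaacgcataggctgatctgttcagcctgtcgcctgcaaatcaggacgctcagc
The windows had no motif in common. That of Slc5a7 held a TATA box 187 to 182 bases before the start, that of Slc18a3 had 2 GC boxes on the opposite strand, at 142 and 122 bases, and that of Chat had a CRE core at 172 bases and an E-box at 150 bases. Base composition also differed, with 45.6% G and C for Slc5a7, 66% for Slc18a3 and 54.8% for Chat, beside a median of 52.4% over 32817 windows of the same length. Among those windows 12.4% held the TATA box, 32.7% the GC box, 6.46% the CRE core and 13% the E-box. A match is a description of letters and not a binding site.

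Among the genes of serotonin neurons, both those specific to serotonin were high in the pontine nucleus. Slc6a4, the serotonin transporter, which recovers serotonin from outside the cell, read 8.85 in the pontine nucleus, 7.45 in both the cerebellum and the bulb and 7.41 in the superior colliculus. The pontine array was 1.40 units or 2.64-fold above the next, and the other 3 lay within 0.04 of each other. In the embryo this transporter is also made for a time by some neurons that take up serotonin without making it, including neurons of the sensory thalamus. Tph2, the tryptophan hydroxylase of neurons, which carries out the first step of serotonin synthesis, read 8.19 in the pontine nucleus, 6.59 in the cerebellum, 6.41 in the superior colliculus and 6.23 in the olfactory bulb. Its pontine level was 1.60 units or 3.03-fold above the cerebellum, and since the other 3 arrays lay below 7.33 this is a lower bound. It did not exceed the level floor, so that it counts as called only without it. Tph2 and Slc6a4 were thus each high on the same 1 array.

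Ddc and Slc18a2 are shared by all monoamine neurons, and neither was called in any region. Ddc, aromatic amino acid decarboxylase, which makes both serotonin and dopamine from their precursors, read 7.46 in the pontine nucleus, 7.35 in the olfactory bulb, 7.30 in the superior colliculus and 7.19 in the cerebellum. Its whole range was 0.27 units, below the 0.40 of the background genes, and the order of its regions is not distinguishable at this size. Slc18a2, the vesicular monoamine transporter of neurons, read 8.48 in the olfactory bulb and 8.47 in the pontine nucleus, but only 7.79 in the cerebellum and 7.70 in the superior colliculus. Its arrays fell into a high pair and a low pair, 0.68 units apart, while the regions inside each pair differed by 0.01 and 0.09. The high pair was made up of the region in which the serotonin genes were high and the region in which Th was high.

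Th, tyrosine hydroxylase, the first and rate-limiting enzyme of catecholamine synthesis, had the widest range among the 10 genes apart from Slc5a7. It read 11.33 in the bulb, 9.48 in the pontine nucleus, 8.07 in the cerebellum and 7.76 in the superior colliculus. The bulb was 1.85 units or 3.60-fold above the pontine nucleus and 3.57 units above the colliculus. The pontine nucleus came second and was itself 1.41 units or 2.66-fold above the cerebellum, while the cerebellum and the colliculus differed by 0.31, inside the span of the background genes. Neither of the other genes specific to catecholamine neurons was called. Slc6a3, the dopamine transporter, read 8.12 in the bulb, 8.06 in the cerebellum, 7.90 in the pontine nucleus and 7.87 in the colliculus, a range of 0.25 units. Dbh, dopamine beta-hydroxylase, which turns dopamine into noradrenaline, read 7.29 in the cerebellum against 6.66 in the pontine nucleus, 6.62 in the colliculus and 6.61 in the bulb. The cerebellar gap of Dbh was 0.63 units, larger than 0.40, but all 4 of its levels lay below 7.33.

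The windows before the starts of Slc6a4, Tph2 and Th are shown because these are the monoamine genes with a region more than 1 unit above the rest. They lie on the plus strand at chr11:76998347-76998596 for Slc6a4, and on the minus strand at chr10:115185023-115185272 for Tph2 and chr7:142899996-142900245 for Th, also from RefSeq, build GRCm38.p6, with the same capitals.
Slc6a4: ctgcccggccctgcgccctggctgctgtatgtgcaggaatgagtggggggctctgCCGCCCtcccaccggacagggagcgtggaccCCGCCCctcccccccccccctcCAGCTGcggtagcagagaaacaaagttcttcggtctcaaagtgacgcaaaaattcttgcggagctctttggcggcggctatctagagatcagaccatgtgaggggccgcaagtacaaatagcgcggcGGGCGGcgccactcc
Tph2: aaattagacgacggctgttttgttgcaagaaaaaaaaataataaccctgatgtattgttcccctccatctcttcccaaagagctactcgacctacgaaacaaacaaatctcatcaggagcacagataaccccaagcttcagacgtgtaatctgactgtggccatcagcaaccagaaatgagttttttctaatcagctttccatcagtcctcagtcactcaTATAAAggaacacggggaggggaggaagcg
Th: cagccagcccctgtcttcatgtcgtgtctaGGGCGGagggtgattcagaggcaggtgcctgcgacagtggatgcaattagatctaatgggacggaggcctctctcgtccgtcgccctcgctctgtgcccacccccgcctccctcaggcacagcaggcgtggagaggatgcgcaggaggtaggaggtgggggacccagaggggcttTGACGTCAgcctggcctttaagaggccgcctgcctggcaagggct
The 2 serotonin genes, both high in the pontine nucleus, had no motif in common in these windows. Slc6a4 held 3 GC boxes, at 195, 164 and 15 bases before its start, and an E-box at 142 bases, with 64.8% G and C. Tph2 had 43.6% G and C and a TATA box 30 to 25 bases before its start. Th had a GC box at 220 bases and a pair of overlapping CRE cores, one on each strand, at 45 to 40 and 43 to 38 bases before its start, which together read as a palindrome. None of the 6 printed windows held the homeodomain core, found in 4.85% of all windows, or the ETS core, found in 12%. Of the 4 genes called higher in the pontine nucleus without the floor, Slc5a7 and Tph2 had the TATA box and Slc18a3 and Slc6a4 had the GC box, so none of the 6 motifs was in all 4 windows.

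**Figure D2:**
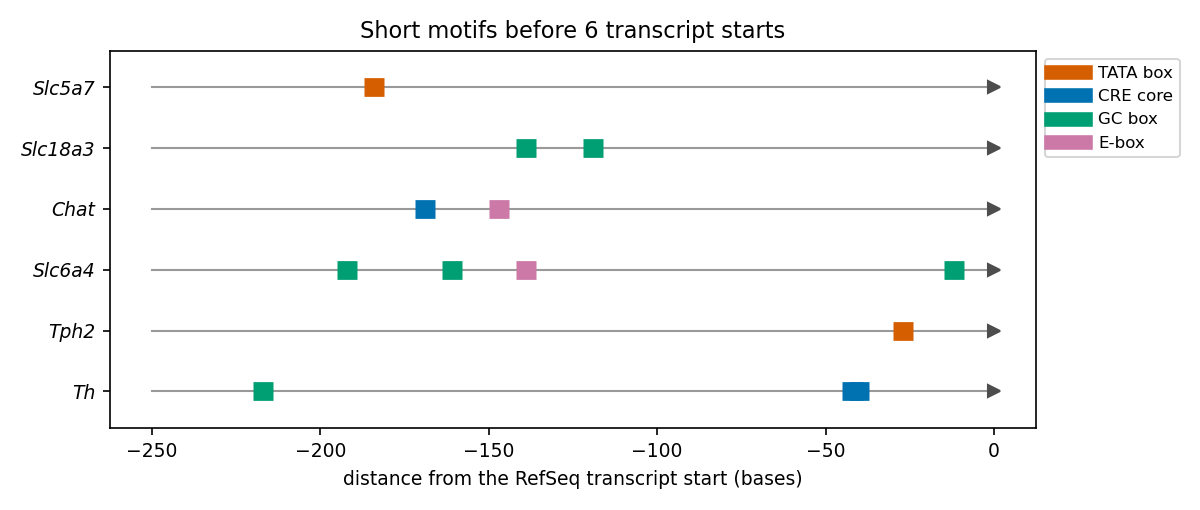
Positions of 4 short motifs in the 250 bases before the transcript starts of 6 genes (distance from the start in bases, horizontal axis, 1 line per gene, arrowhead at the start). The TATA box of Tph2 and the pair of CRE cores of Th lie within 45 bases of the start, and no motif is present on all lines.

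The same levels set against each other in pairs of regions show where the differences lay. The pontine nucleus was at least 1 log2 unit above the cerebellum for 5 of the 10 genes without a floor, namely Slc5a7, Slc18a3, Slc6a4, Tph2 and Th, where 1.26% of all genes were. It was above the superior colliculus for the same 5 genes, where 1.06% of all genes were, with differences of 3.18, 1.72, 1.44, 1.78 and 1.72 units in that order. It was above the olfactory bulb for 4, where 1.65% of all genes were, and the bulb was above it for Th alone, where 3.16% of all genes were. The bulb was above the cerebellum and the superior colliculus for Th alone, by 3.26 and 3.57 units, where 1.5% and 1.78% of all genes were. The cerebellum exceeded the bulb for Slc5a7 alone, against 1.23% of all genes. Between the cerebellum and the superior colliculus none of the 10 differed by 1 unit, while 1.88% of all genes were higher in the first and 1.54% higher in the second. The widest differences of that pair were 0.67 for Dbh and 0.59 for Slc5a7. The comparisons share arrays, so the pontine column of differences recurs in 3 of the 6 pairs and is not 3 separate observations.

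**Figure D3:**
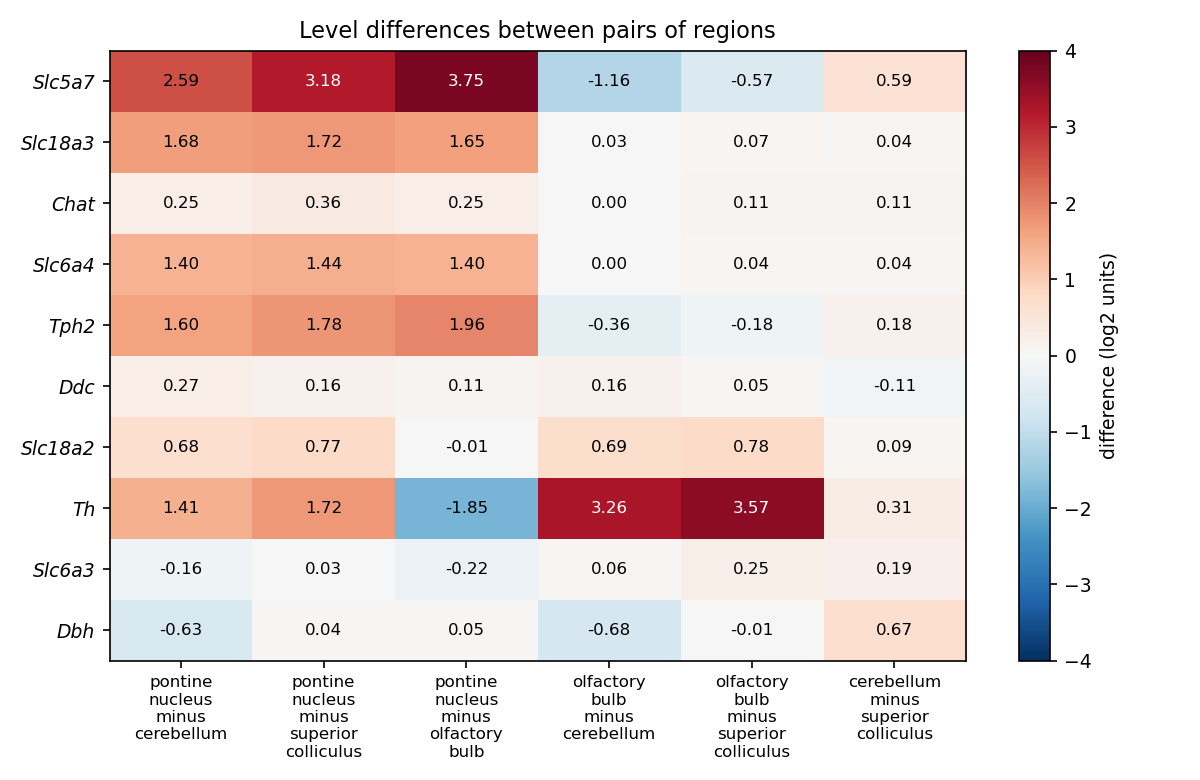
Difference in level for each of the 10 genes (rows) between the members of 6 pairs of regions (columns), in log2 units, with red for a higher level in the region named first. The 3 pontine columns hold values of at least 1.40 for Slc5a7, Slc18a3, Slc6a4 and Tph2, and the last column, cerebellum minus superior colliculus, has none above 0.67.

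Other genes of these pathways were read from 9 lists, which held 66 measured genes, 35 of them above the floor. Higher calls among the 35 numbered 5 for the bulb, 4 for the colliculus, 3 for the cerebellum and 1, Ret, for the pontine nucleus. Beside them, the rule called 0.972%, 0.715%, 0.605% and 0.798% of 10908 compared genes, in that order. The Ret call was lost on quantile normalization. Measured from the mean of the remaining 3 arrays, the median difference of the 66 genes was -0.15 in the pontine nucleus, where that of the 10 transmitter genes was 0.45 and that of all genes -0.04. Among 6 measured breakdown enzymes, Maob, a monoamine oxidase, was higher in the olfactory bulb at 9.62 against at most 7.64. Ache, acetylcholinesterase, was called higher in the superior colliculus at 10.33 against at most 9.32, a call that was lost when the arrays were quantile normalised. The pontine nucleus, where Slc5a7 and Slc18a3 were high, had the lowest level of Ache, 8.57. Maoa, the other monoamine oxidase, was not called and read 9.66 in the bulb and 8.65 in the pontine nucleus. All 6 genes of the synthesis, recycling and regulation of tetrahydrobiopterin, the cofactor of Th and Tph2, were measured and none was called. Gch1, its rate-limiting enzyme, read between 6.11 and 6.36 on the 4 arrays, below the background percentile. Qdpr, which recycles the cofactor, read 10.68 in the bulb and at most 10.08 elsewhere. Pcbd1, which acts in the same recycling, read 9.31 in the pontine nucleus and at least 9.94 elsewhere.

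None of 12 measured further synthesis and transport genes was called. Slc10a4, a vesicle protein of cholinergic and monoamine neurons, read 9.49 in the pontine nucleus, 8.97 in the superior colliculus, 8.28 in the bulb and 8.24 in the cerebellum. It was thus highest on the array where Slc18a3 was, by 0.52 units. Slc29a4, a plasma membrane monoamine transporter of low affinity, read 11.83 in the pontine nucleus and at most 11.24 elsewhere. Slc6a2, the noradrenaline transporter, read 7.75 in the cerebellum and 7.25 to 7.36 elsewhere, a gap of 0.39 that is inside the span of the background genes. Tph1, the tryptophan hydroxylase of peripheral tissues and the pineal gland, read at most 6.92, below the background percentile.

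Of 8 measured serotonin neuron factors 1 was highest in the pontine nucleus, Nkx2-2 at 8.40 against at most 8.26, and none was called higher there. Such counts are near those of all genes, of which 22.6% were highest and 0.798% called higher there, and are not a result about the factors. The factor gene Lmx1b read 8.63 in the pontine nucleus and 8.66 to 8.89 elsewhere. Gata2 read 9.09 in the colliculus, 8.44 in the pontine nucleus, 8.02 in the cerebellum and 7.99 in the bulb. En1 and En2 were called higher in the cerebellum, where the rule called 0.605% of compared genes. Gata3 was called higher in the superior colliculus, where the rule called 0.715%. It read 10.80 there against 8.06 in the pontine nucleus and at most 7.30 elsewhere. Insm1 was called lower in the colliculus at 9.44 against at least 10.76. Of 14 measured brainstem motor neuron genes 9 were highest in the cerebellum, beside 28.7% of all genes. Their leads of 0.01 to 0.36 were inside the 0.40 of the background genes. In the pontine nucleus 1 was highest, the receptor tyrosine kinase gene Ret, beside 22.6% of all genes. It was called higher there at 10.46 against at most 9.44. That call was lost on quantile normalization. The motor neuron factors Isl1, Mnx1 and Phox2a read 6.76, 6.20 and 7.09 in the pontine nucleus, below the background percentile. Elsewhere they read 6.95 to 7.45, 6.48 to 6.59 and 7.26 to 7.36, in that order. They were thus near or below that percentile on every array and tell little about any region. Of the 14 genes only 3 exceeded the floor, and the summed log2 level of that list, 105.66 in the pontine nucleus and 105.85 to 108.25 elsewhere, gives no order of regions. That of the serotonin factors was 66.79 in the pontine nucleus, 65.05 in the bulb, 68.93 in the colliculus and 72.18 in the cerebellum. It includes En2, at 11.47 in the cerebellum against at most 7.44 elsewhere, and Gata3, which also served as a collicular marker. The sum therefore gives no order of regions for serotonin neurons. No measured gene of 5 forebrain cholinergic factors was called, and the largest differences there were those of Ngfr, 9.96 in the cerebellum against at most 9.26, and Isl1, 7.45 in the cerebellum against at most 7.09. Fev, a factor gene of serotonin neurons, is unnamed here. The part of either cell type in the pontine levels of Slc5a7, Slc18a3, Slc6a4 and Tph2 was not tested.

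Of 9 measured factors of olfactory bulb dopamine interneurons, 6 were highest in the bulb, where Th was high, beside 24.3% of all genes. Against 0.972% of compared genes, 4 of the factors were called there. These were the homeobox genes Dlx1, at 12.89 against at most 7.84, and Dlx2, at 11.01 against at most 7.50, the zinc finger gene Sp8, at 10.38 against at most 7.15, and the ETS factor gene Etv1, which read 12.16 against at most 10.51. Measured in the same way, the median difference of the list was 1.26 in the bulb, beside 0.01 for all genes. Nr2f1 was lowest in the bulb, at 8.39 against at least 9.37, and Nr4a2 was highest in the colliculus. Dlx1, Dlx2 and Sp8 also served as markers of the bulb as a tissue, these factors act in other interneurons too, and the list is no measure of dopamine neurons alone. Of 6 measured meningeal genes, 5 were highest in the bulb, beside 24.3% of all genes. Among them Col1a1, Col1a2 and Col3a1 led by only 0.25 to 0.37, inside the 0.40 of the background genes. Lum led by 0.85 but read at most 6.04, below the background percentile. Dcn was called at 10.59 against at most 8.65, where the rule called 0.972% of compared genes. The part of meningeal tissue in the level of Th was not tested. In the pontine nucleus, where Th was second highest, Pax6 read 11.76 and Sp8 only 7.03. Pax6 was called lower in the superior colliculus, at 9.58 against at least 11.05.

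Of 10 measured midbrain dopamine factors, 6 were highest in the cerebellum, beside 28.7% of all genes. Among them Pitx3, Lmx1b, Foxa1 and Foxa2 led by only 0.04 to 0.12, inside the 0.40 of the background genes. En1 and En2 were called there, where the rule called 0.605% of compared genes. Ret was called in the pontine nucleus, where the rule called 0.798%, and that call was lost on quantile normalization. Otx2 was called higher in the superior colliculus at 11.93 against at most 10.70 and lower in the pontine nucleus at 7.04 against at least 8.56, while Nr4a2 was highest in the colliculus at 10.59 against at most 9.62 without passing the rule. Pitx3, a factor restricted to midbrain dopamine neurons in the brain, read 8.15 to 8.43, with 8.30 in the colliculus. Of 5 measured noradrenaline neuron factors, Tlx3 was called in the cerebellum at 9.27 against at most 7.60 and Tfap2b in the colliculus at 12.88 against at most 11.30. Both also serve other neurons of these regions. Over all compared genes, the rule called 0.605% higher in the cerebellum and 0.715% higher in the colliculus. Phox2a, a homeobox factor of noradrenaline neurons, read between 7.09 and 7.36.

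**Figure D4:**
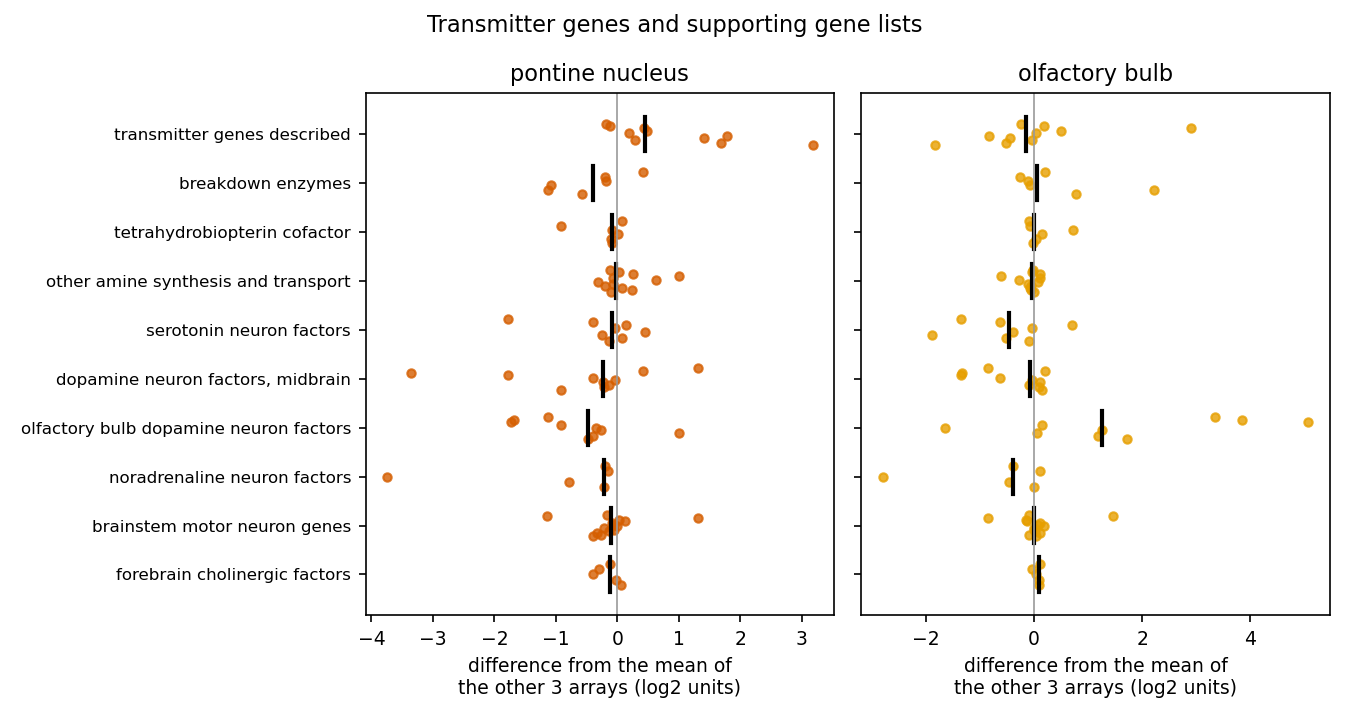
Difference of each gene from the mean of the other 3 arrays (log2 units, horizontal axis) in the pontine nucleus and in the olfactory bulb, for the 10 transmitter genes and 9 supporting lists, with 1 point per measured gene and a black bar at the median. In the pontine nucleus the median of the transmitter genes is 0.45 and those of the lists lie below 0, and in the bulb the dopamine neuron factors have a median of 1.26.

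For each of the 4 genes above the floor, the genes with the nearest regional profile were sought among 10480 others by the Euclidean distance of levels centred on each gene's mean, over only 4 arrays. Slc18a3 lay nearest to Hoxa4, a Hox gene of hindbrain and spinal cord, at a distance of 0.12 log2 units, then to Dock8, a guanine nucleotide exchange factor gene, at 0.18, and to Hoxb5 at 0.20. Slc6a4 lay nearest to Dock8 at 0.16, to Prss35, a gene of the serine protease family, at 0.19 and to Hoxa4 at 0.24. For Slc5a7 the nearest were Hoxb2 at 0.63, Pappa2, a metalloproteinase gene, at 0.66 and Ddx31, an RNA helicase gene, at 0.71. Nearest to Th was Ptk2b, a cytoplasmic tyrosine kinase gene, at 0.70, which read 10.59 in the bulb and 8.63 in the pontine nucleus, followed by Neurod6 at 1.07 and the zinc finger gene Tshz1 at 1.19. With 4 arrays such likeness is a description, and many genes with a single high array would share it.

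**Figure D5:**
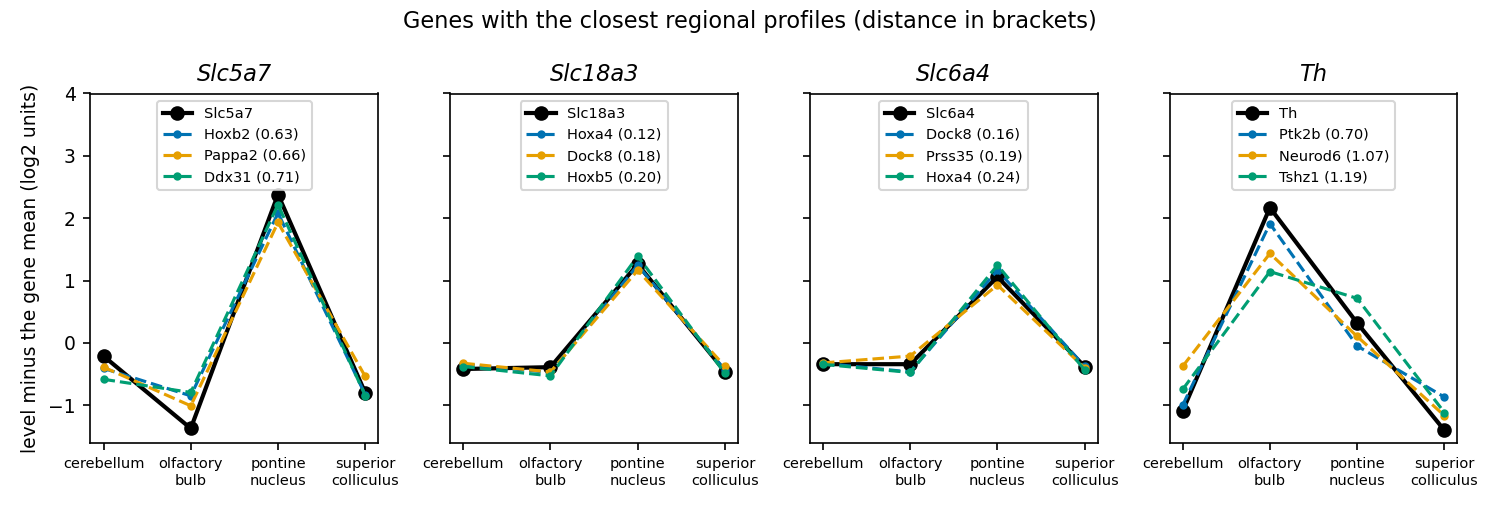
Level minus the gene's mean over the 4 arrays (log2 units, vertical axis) in each region, for Slc5a7, Slc18a3, Slc6a4 and Th (black) and the 3 nearest genes of each (dashed), with the distance in brackets. The profiles around Slc18a3 and Slc6a4 have a single pontine peak, that of Slc5a7 is lowest in the bulb, and the neighbours of Th lie at distances of up to 1.19.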

How the data were processed

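Total RNA of 4 regions, pooled over mice, was purified with Trizol and RNeasy columns, made into sense-strand cDNA and hybridised to an Affymetrix array for each region, per the labels' protocols. Affymetrix Expression Console was used, per the submitters' processing notes. Its version, algorithm and scaling, and the build, are not stated there. In the authors' deposited table is 1 value per probe set and array, taken as log2 because all values lie between 2.43 and 14.57. Scaling between arrays by the authors can remove differences in the general level, and weak signals are compressed towards background. Precision is limited by the number of arrays.

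Of 35556 probe sets, 21789 have 1 symbol in the platform annotation of 2016. Genes with several took the probe set with the highest mean, and each of the 10 genes had only 1. No test was made. The rule was run on simulated levels, with noise of the size seen in the background genes and known amounts added to some genes. Spread between pooled preparations was not simulated, so the run says nothing about how far the calls would repeat. The 10 genes and the lists were chosen with earlier results of these data known. All 10 genes and each list member past the rule are named, up to 2 of a list where none passed, and the 3 nearest profiles; other list genes were named after their values were seen. Lists of choroid plexus, blood and sensory ganglion markers were also measured: choroid plexus had 0 of 5 above the floor, blood 2 of 2 highest in the bulb with none called, and ganglion neurons 0 of 6 highest in the pontine nucleus, with Tlx3 called in the cerebellum. Promoter windows were found for 10 of 10 genes. Alternatives were no floor, a floor at the 75th percentile, quantile normalization, centring on array medians, the mean of probe sets, the mean of the other arrays as comparator and a rule of 2 log2 units. Python 3.11.15, NumPy 2.4.6, pandas 2.3.3 and Matplotlib 3.10.9 were used.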

Additional observations from a re-analysis of the deposited data

How the results depend on the processing

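With 1 array per region, no result has a replicate check. No paired analysis was possible because there is 1 array per region and the result comes from no test. The counts of called transmitter genes were within 1.5 times their reported values in all regions without a level floor and on quantile normalization. The mean of probe sets could not change the levels of the 10 genes, since each had only 1 probe set. When the floor was set at the 75th percentile, the count higher in the pontine nucleus was 1, Slc5a7. With a rule of 2 log2 units that count was also 1, and the count higher in the olfactory bulb was 0. Against the mean of the other arrays, 1 gene was lower in the cerebellum (Th), 1 in the olfactory bulb (Slc5a7) and 2 in the superior colliculus (Slc5a7 and Th), which follows from the high array that enters the mean. That comparator moved the gaps of 3 of the 10 genes, to 3.17 for Slc5a7, 2.89 for Th and 0.49 for Slc18a2, and 20 of 72 counts over the supporting lists. Quantile normalization moved 3 of the 72, through Ache and Ret. None of the gaps changed sign on quantile normalization or on centring on array medians. Against the mean of the other arrays none could, since the highest array always lies above that mean. Levels near 7.33 limit Tph2, Chat, Ddc and Dbh.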
